A study of Homo sapiens with 8 samples.

Results

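The tubulin genes considered here are 3 alpha-tubulin genes (TUBA1A, TUBA1B and TUBA1C), 6 beta-tubulin genes (TUBB, TUBB2A, TUBB2B, TUBB3, TUBB4B and TUBB6) and the gamma-tubulin gene TUBG1. They are 10 of the 19305 RefSeq accessions counted in each library, and all 10 were among the 14565 genes that passed the filter on low counts. The set was chosen by the fall of TUBB3, about 2-fold, in H9 cells that carried eIF2A shRNA, so the H9 knockdown values of all 10 genes are given below as a description, without a test. The other 2 comparisons, in HEK293T cells and between the cell lines, were not used to choose them. The comparison between the lines does share the H9 control libraries with the values that chose the set. Its TUBB3 result is therefore not independent of that choice.

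Poly(A) RNA was sequenced in 8 libraries, 2 in each of 4 groups: H9 cells with eIF2A shRNA, H9 cells with control shRNA, HEK293T cells with eIF2A siRNA and sodium arsenite, and HEK293T cells with control siRNA and sodium arsenite. H9 is a human embryonic stem cell line, HEK293T is an embryonic kidney line that carries the SV40 large T antigen, and eIF2A is a translation initiation factor able to deliver the initiator tRNA without eIF2. All HEK293T libraries, controls included, came from arsenite-treated cells, and no H9 library is labelled with arsenite. The labels number the 2 libraries of a group as sets and do not say that they came from separate cultures, so a p-value here covers the spread between library pairs that may differ only technically.

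Microtubules are polymers of alpha- and beta-tubulin heterodimers, and gamma-tubulin seeds them at centrosomes. Vertebrates hold several isotypes of each, encoded by separate genes, that differ mostly in an acidic carboxy-terminal tail which motor proteins, severing enzymes and modifying enzymes read. TUBB3 is best known as the neuronal class III beta-tubulin and TUBB2B and TUBA1A as isotypes abundant in the developing brain, while TUBB4B, TUBB6, TUBA1B and TUBA1C are widely expressed. Cells also adjust tubulin mRNA to the amount of free tubulin: TTC5 binds the first amino acids of nascent alpha- and beta-tubulin at the ribosome and, through SCAPER and the CCR4-NOT deadenylase, starts decay of the mRNA being translated.

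The first 30 coding bases are shown because this autoregulation reads the peptide that they encode. Capitals mark the first 12 bases, the start codon and the 3 codons after it. Sequences were read from the principal GENCODE v29 transcripts on GRCh38, each gene's own strand, 5′ to 3′.
TUBA1A, TUBA1B and TUBA1C: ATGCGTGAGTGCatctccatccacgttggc
TUBB3: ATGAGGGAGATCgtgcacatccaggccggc
TUBB6: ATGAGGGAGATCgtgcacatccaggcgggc
TUBB4B: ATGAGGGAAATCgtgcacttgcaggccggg
TUBB: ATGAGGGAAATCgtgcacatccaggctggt
TUBB2A: ATGCGCGAGATCgtgcacatccaggcgggc
TUBB2B: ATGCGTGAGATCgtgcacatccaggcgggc
TUBG1: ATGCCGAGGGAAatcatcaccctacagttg
The 3 alpha genes had the same 30 bases. TUBB3 and TUBB6 shared their first 12 bases, as did TUBB and TUBB4B, whereas TUBB2A and TUBB2B each had 12 bases of their own. These differences among the beta genes are synonymous: the first 12 bases encode the same amino acids in all of them. TUBG1 began with another stretch.

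The last 60 coding bases before the stop codon of beta genes and TUBG1 are shown because they encode the tails by which isotypes are told apart. Capitals mark in-frame codons for glutamate or aspartate.
TUBB3: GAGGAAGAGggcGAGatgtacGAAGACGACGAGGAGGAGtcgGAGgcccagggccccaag
TUBB2B: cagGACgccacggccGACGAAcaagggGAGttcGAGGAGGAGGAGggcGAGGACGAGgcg
TUBB2A: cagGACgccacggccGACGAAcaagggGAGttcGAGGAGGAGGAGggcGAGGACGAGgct
TUBB4B: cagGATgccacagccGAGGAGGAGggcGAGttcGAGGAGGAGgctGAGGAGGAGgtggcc
TUBB6: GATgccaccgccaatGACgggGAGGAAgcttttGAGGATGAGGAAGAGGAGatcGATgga
TUBG1: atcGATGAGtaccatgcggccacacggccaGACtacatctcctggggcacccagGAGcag
Acidic codons made up 11 of 20 in each of the 6 beta tails, TUBB included, and 4 of 20 in TUBG1. TUBB3 shared 53.3 to 65% of these 60 bases with the other beta genes, and over the whole coding sequence 81.8% (TUBB) to 87.8% (TUBB2A). TUBB2A and TUBB2B were 98.2% identical over the coding sequence. Among the alpha genes, TUBA1A and TUBA1B were 97.2% identical over the coding sequence. On GRCh38, TUBB3 lies at chr16:89923279-89936097 (plus strand), TUBB2B at chr6:3224261-3227735 (minus strand), TUBB2A at chr6:3153669-3157526 (minus strand), TUBB4B at chr9:137241213-137243707 (plus strand), TUBB6 at chr18:12308059-12326619 (plus strand) and TUBG1 at chr17:42609676-42615234 (plus strand). The alpha genes lie together on chromosome 12, TUBA1A at chr12:49184796-49189324 and TUBA1B at chr12:49127782-49131395 on the minus strand and TUBA1C at chr12:49264907-49274603 on the plus strand. The 60 bases lay in exon 4 of each beta gene and in exon 11 of TUBG1.

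Such close copies limit what read counts can say of single isotypes. Of all 50-base windows of the counted transcript, 99.0% in TUBB6, 92.1% in TUBB3 and 90.1% in TUBB4B occur in the transcripts of no other gene, leaving out genes whose annotated locus overlaps it, such as the read-through gene at TUBB3, but only 37.3% in TUBA1B and 34.5% in TUBB2A. Reads from shared stretches cannot be given to 1 gene, so the levels of TUBA1A, TUBA1B, TUBA1C, TUBB2A and TUBB2B are uncertain, and changes within those pairs can blur. In TUBG1 70.1% of the windows occur in no other gene, and 454 are shared with TUBG2, so changes in TUBG1 and TUBG2 can blur too. TUBB3 shares exon bases with an annotated read-through gene on the same strand. An exon annotated to TUBA1C overlaps the counted TUBA1A transcript on the opposite strand, although the coordinates given above lie apart. The counted TUBA1C transcript shares no exon bases with TUBA1A. TUBB4B overlaps FAM166A and TUBG1 overlaps RETREG3, each on the opposite strand. How the counting treated strand is not stated by any source used here.

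TUBB, at chr6:30720201-30725426 on GRCh38 (plus strand), lies in the major histocompatibility complex region, where many genes had few or no counts. Of its 50 nearest protein-coding neighbours in the files, 31 (62.0%) were under 1 CPM (counts per 1000000, scaled to library size) in all 8 libraries, against 28.3% of all accessions. The widely expressed neighbours ABCF1 and NRM had 0 counts in each of the 8 libraries, and FLOT1 had 0 to 4. The TUBB values below are therefore counts as deposited and not a usable level of that gene.

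The libraries held between 21837052 and 32318668 counts on genes. EIF2A itself had 5.03 and 4.67 CPM in H9 cells with eIF2A shRNA, against 15.8 and 14.8 CPM in H9 controls, and 5.58 and 5.98 CPM in HEK293T cells with eIF2A siRNA, against 17.5 and 18.3 CPM in HEK293T controls. The 9 pluripotency markers in the files summed to 5410 to 5500 CPM in H9 cells with eIF2A shRNA, 5790 to 5810 CPM in H9 controls, 138 to 140 CPM in HEK293T cells with eIF2A siRNA and 150 to 153 CPM in HEK293T controls. In H9 with eIF2A shRNA 3 of these 9 rose and 4 fell (edgeR, adjusted p under 0.05), where 37% of all tested genes rose and 34.3% fell. With a smooth trend over GC and length removed, 2 rose and 6 fell, where 49.5% of all tested genes changed in either direction. L1TD1 had 148 and 142 CPM with eIF2A shRNA and 73.7 and 70.6 CPM in H9 controls. POU5F1 had 141 and 114 CPM with eIF2A shRNA and 162 and 195 CPM in H9 controls. LIN28A was at most 0.157 CPM in any HEK293T library. The 8 kidney epithelium markers summed to 13.4 to 14.3 CPM in HEK293T with eIF2A siRNA and 13.3 to 14.5 CPM in HEK293T controls. UMOD was at 0 in each of the 4 HEK293T libraries. In H9 the same 8 summed to 329 to 332 CPM with eIF2A shRNA and 199 to 200 CPM in controls. Most of the H9 control sum was CDH1, with 120 and 122 CPM, and EPCAM, with 71.1 and 72.5 CPM. PAX2 lay the other way, with 5.14 and 6.19 CPM in HEK293T controls and 0.0933 and 0.0987 CPM in H9 controls. So did LHX1, with 3.66 and 3.61 CPM in HEK293T controls and 0.0933 and 0.395 CPM in H9 controls. Between the controls, 3 of the 5 tested were higher and 2 lower in H9 (edgeR, adjusted p under 0.05). By that rule 42.3% of all tested genes were higher and 41.2% lower.

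The isotype makeup of H9 and HEK293T cells was not the same. Levels of different genes are compared as CPM divided by the length of the counted transcript in kilobases (CPM per kb). The order of the members depends on the length taken. For TUBA1C the counted transcript has 1695 bases and the principal transcript 3001, on which its level per kb would be lower. The order was not redone with principal lengths. TUBA1B was the most abundant member as counted in all 4 groups, at 1850 ± 49.3 CPM per kb in H9 with eIF2A shRNA, 2510 ± 45.5 in H9 controls, 2510 ± 50.6 in HEK293T with eIF2A siRNA and 2550 ± 37.4 in HEK293T controls (SD, n = 2 each). In H9 controls the order below it was TUBA1C (687 CPM per kb), TUBB4B (549), TUBA1A (387), TUBB2B (328), TUBB3 (178), TUBB2A (129), TUBG1 (120), TUBB6 (87.9) and TUBB (84.9), and no 2 neighbours in this order overlapped between their pairs of libraries. In HEK293T controls it was TUBB4B (821), TUBA1C (745), TUBG1 (289), TUBA1A (191), TUBB2B (70.4), TUBB6 (69.4), TUBB2A (52.3), TUBB3 (18.3) and TUBB (9.99), where the libraries of TUBB2B and TUBB6 overlapped. As counted, TUBB3 stood sixth of the members in H9 with control shRNA and ninth in HEK293T with control siRNA.

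**Figure D1:**
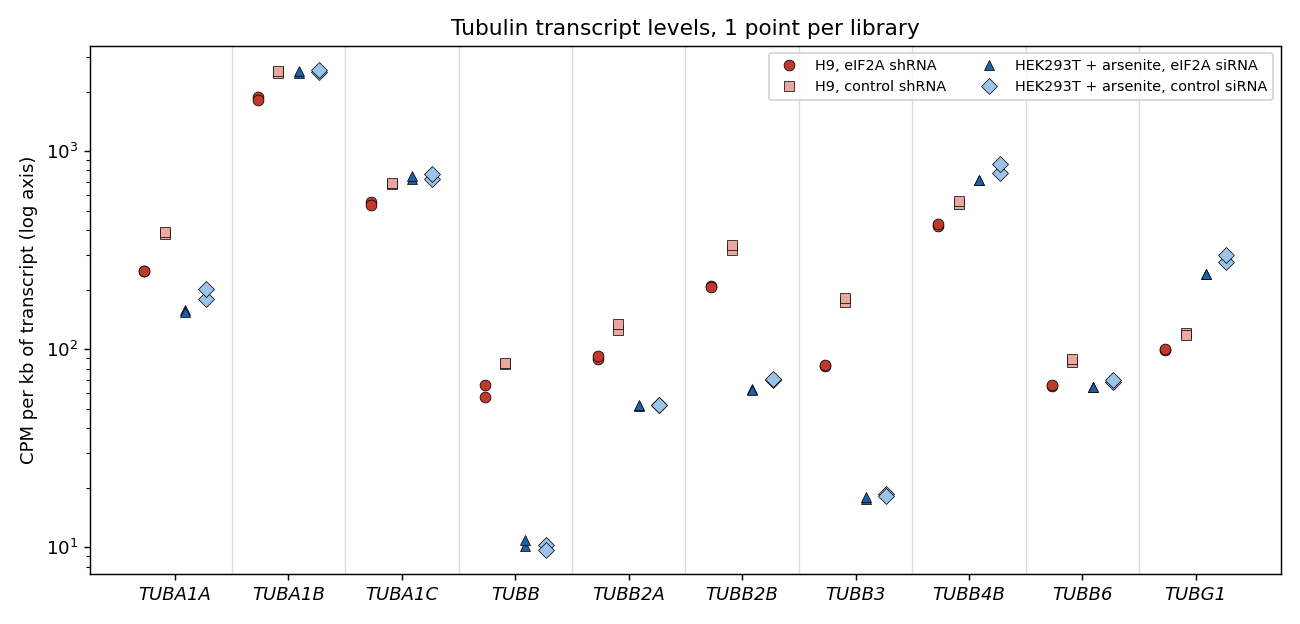
Level of each tubulin gene in CPM per kb of counted transcript (log axis), 1 point per library, 2 libraries in each of the 4 groups. TUBB3 and TUBB2B stand far higher in H9 than in HEK293T, TUBB4B and TUBG1 are lower in H9, and TUBA1B controls of both lines lie at the same height.

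The comparison of the 2 control groups asks how the lines differ before knockdown, although line, arsenite and the kind of RNA interference change together and cannot be told apart. By edgeR's quasi-likelihood test with Benjamini-Hochberg adjustment over all tested genes, 6 of the 10 members were higher and 3 lower in H9 controls than in HEK293T controls, and 1 did not pass. Of all tested genes, 42.3% were higher and 41.2% lower by the same rule, so a difference in either direction is the usual state of a gene here. The members' median log2 fold change was 0.68, beside 0.003 for all tested genes and 0.27 for the 4447 genes of 55 to 65% GC. After removal of a smooth trend over GC and length, the members' median was 0.25 and that of all tested genes -0.19.

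TUBB3 had 344.1 and 360.4 CPM in H9 controls, against 36.6 and 35.9 CPM in HEK293T controls. It was 9.73-fold higher in H9 controls (log2 fold change 3.28 ± 0.04 SE, adjusted p = 1.1e-37 by edgeR). These H9 controls are also among the libraries whose TUBB3 values chose the set. TUBB2B followed, with 642.9 and 683.2 CPM in H9 controls, against 141.9 and 142.4 CPM in HEK293T controls (log2 fold change 2.22, adjusted p = 4.5e-35, edgeR). TUBB2A and TUBA1A were higher too, by 1.31 and 1.02 on the log2 scale (adjusted p = 6.4e-26 and 9.4e-24, edgeR). With the trend removed the log2 fold changes were 2.64 for TUBB3, 1.79 for TUBB2B, 0.73 for TUBB2A and 0.67 for TUBA1A, all still called (edgeR).

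TUBG1 and TUBB4B differed in the other direction. TUBG1, which nucleates microtubules, had 195.6 and 190.9 CPM in H9 controls, against 445.5 and 484.9 CPM in HEK293T controls (log2 fold change -1.27 ± 0.04 SE, adjusted p = 5.4e-27, edgeR). TUBB4B, the highest of the beta members other than TUBB in both lines, had 882.4 and 916.2 CPM in H9 controls, against 1271 and 1416 CPM in HEK293T controls (log2 fold change -0.58, adjusted p = 1.7e-14, edgeR). With the trend removed TUBG1 was at -1.75 and TUBB4B at -1.16. TUBA1C was slightly lower in H9 controls (log2 fold change -0.12, adjusted p = 8e-04, edgeR; -0.20 with the trend removed). TUBA1B did not pass, with 4025 and 4130 CPM in H9 controls and 4104 and 4190 CPM in HEK293T controls (adjusted p = 0.43, edgeR), but was called lower with the trend removed (log2 fold change -0.17, adjusted p = 2.2e-06). TUBB6 was higher in H9 controls as measured (log2 fold change 0.34, adjusted p = 1.4e-10, edgeR), but lower once the trend of fold changes with GC content and length was removed (log2 fold change -0.26, adjusted p = 2.3e-08). TUBB counts differed by 3.09 on the log2 scale, which carries the limit of that locus given above.

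The beta-tubulin pool, taken as the summed CPM per kb of the 6 beta members, was shared out differently in each line. TUBB4B made up 40.6 and 40.3% of it in H9 controls, against 77.9 and 79.7% in HEK293T controls. TUBB2B made up 24.2 ± 0.26% in H9 controls and 6.77 ± 0.4% in HEK293T controls (SD, n = 2 each). TUBB3 held 13.11 and 13.12% in the H9 controls, against 1.859 and 1.669% in the HEK293T controls. TUBB6 had nearly the same share everywhere, 6.48 ± 0.071% in H9 controls and 6.68 ± 0.27% in HEK293T controls. These shares are of the pool as counted, and since TUBB has no usable level they do not give the true makeup of either line.

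The alpha pool differed less. TUBA1B made up 70% of it in H9 controls and 73.2% in HEK293T controls, and TUBA1C 19.2% in H9 controls and 21.4% in HEK293T controls. These alpha shares rest on the counted TUBA1C length of 1695 bases. They were not redone with its principal length of 3001 bases, which would lower the TUBA1C share. TUBA1A held 10.8 ± 0.021% in H9 controls and 5.47 ± 0.29% in HEK293T controls (SD, n = 2 each). The alpha pool was 2.67 and 2.61 times the beta pool in H9 controls and 3.44 and 3.26 times in HEK293T controls, a ratio that the shared windows of the alpha genes and the undercounted TUBB both touch. Without TUBB the TUBB3 share was 14% in H9 controls and 1.78% in HEK293T controls, and with TUBB4A, a beta gene outside the set, it was 12.9% in H9 controls and 1.68% in HEK293T controls. TUBB4A itself held 1.6 ± 0.086% of that wider pool in H9 controls and 4.94 ± 0.23% in HEK293T controls.

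**Figure D2:**
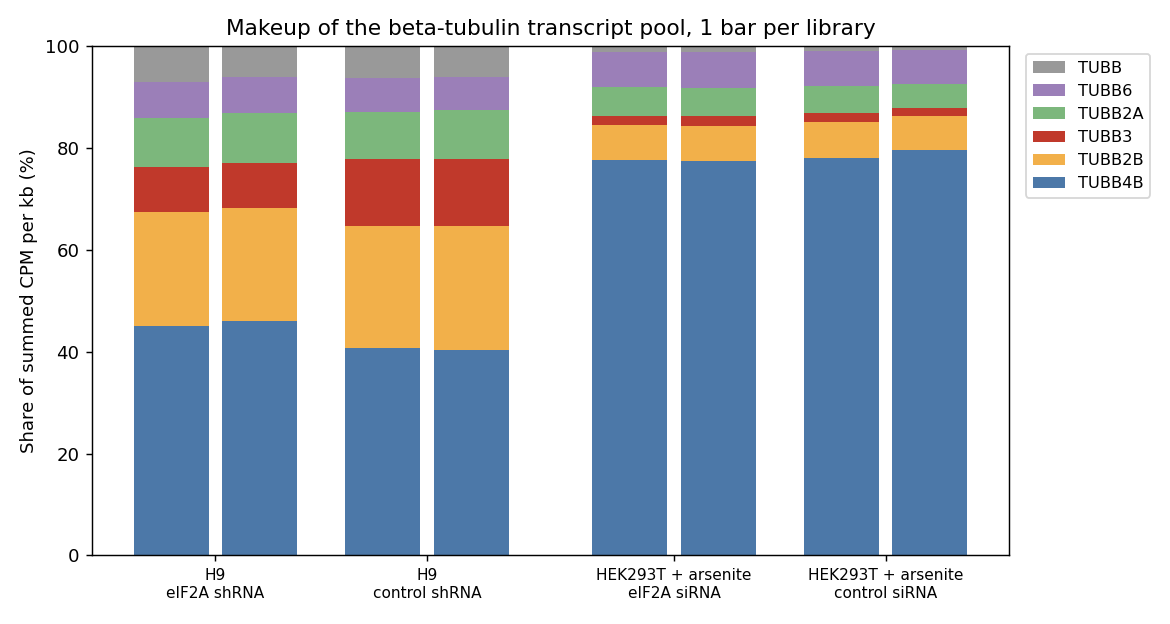
Share of each beta-tubulin gene in the summed CPM per kb of the 6 beta members, 1 bar per library. TUBB3 takes 8.89% in H9 with eIF2A shRNA, 13.1% in H9 controls, 1.91% in HEK293T with eIF2A siRNA and 1.76% in HEK293T controls, while TUBB4B fills most of each HEK293T bar.

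In H9 cells with eIF2A shRNA all 10 members were below the H9 controls, and TUBB3 was the one furthest below. TUBB3 had 163.9 and 164.9 CPM with eIF2A shRNA, against 344.1 and 360.4 CPM in H9 controls. That is 46.7% of the control level, a log2 fold change of -1.10 ± 0.04 (SE), and these values chose the set. Fewer cells with a transcript and less of it per cell cannot be told apart in such bulk libraries. Groups that did not overlap, with both knockdown libraries lower, occurred in 41% of all tested genes, and 9.48% of them were at least 1.5-fold lower.

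TUBB2B and TUBA1A were the other members at least 1.5-fold lower, 3 of 10 in all. TUBB2B had 420 and 418.3 CPM in H9 cells with eIF2A shRNA, against 642.9 and 683.2 CPM in H9 controls (log2 fold change -0.66 ± 0.03 SE). TUBA1A had 468.7 and 468.9 CPM with eIF2A shRNA, against 723.4 and 738.1 CPM in controls (log2 fold change -0.64 ± 0.04 SE). Just outside the threshold, TUBB2A had 143.1 and 147.5 CPM with eIF2A shRNA and 198.8 and 213.4 CPM in controls (log2 fold change -0.50). Which members pass depends on the scaling: 6 were at least 1.5-fold lower with DESeq2 size factors and 2 with upper-quartile scaling, where TUBA1A was at -0.57.

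The widely expressed isotypes were lower by less. TUBA1B, the main alpha gene, had 3072 and 2958 CPM in H9 cells with eIF2A shRNA, against 4025 and 4130 CPM in controls (log2 fold change -0.44). TUBA1C, TUBB4B, TUBB6 and TUBB had log2 fold changes between -0.46 (TUBB) and -0.34 (TUBA1C). TUBG1 lay least below its controls, with 160.5 and 161.7 CPM with eIF2A shRNA and 195.6 and 190.9 CPM in controls (log2 fold change -0.26). No member's H9 groups overlapped.

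The H9 fold changes of all genes ran with base composition. Across 14489 genes with a known GC content, the H9 fold change was lower at higher GC (Spearman's rho -0.68 across genes, which are not independent replicates), and the members' transcripts are 51.3 to 61.2% GC, TUBB3 being the highest. The members' median log2 fold change was -0.45, beside 0.02 for all tested genes and -0.36 for the genes of 55 to 65% GC. With a smooth trend over GC and length removed, TUBB3 stood at -0.65, TUBB at -0.38, TUBB2B at -0.29, TUBA1A at -0.28, TUBA1B at -0.18 and TUBA1C at -0.16. TUBB2A and TUBB6 were then at -0.01, and TUBB4B and TUBG1 were at 0.12 and 0.20, on the other side of 0. Only TUBB3 was still at least 1.5-fold lower, where 8.63% of tested genes were. As measured, 1.03% of all tested genes lay below TUBB3, and with the trend removed 7.03% did.

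**Figure D3:**
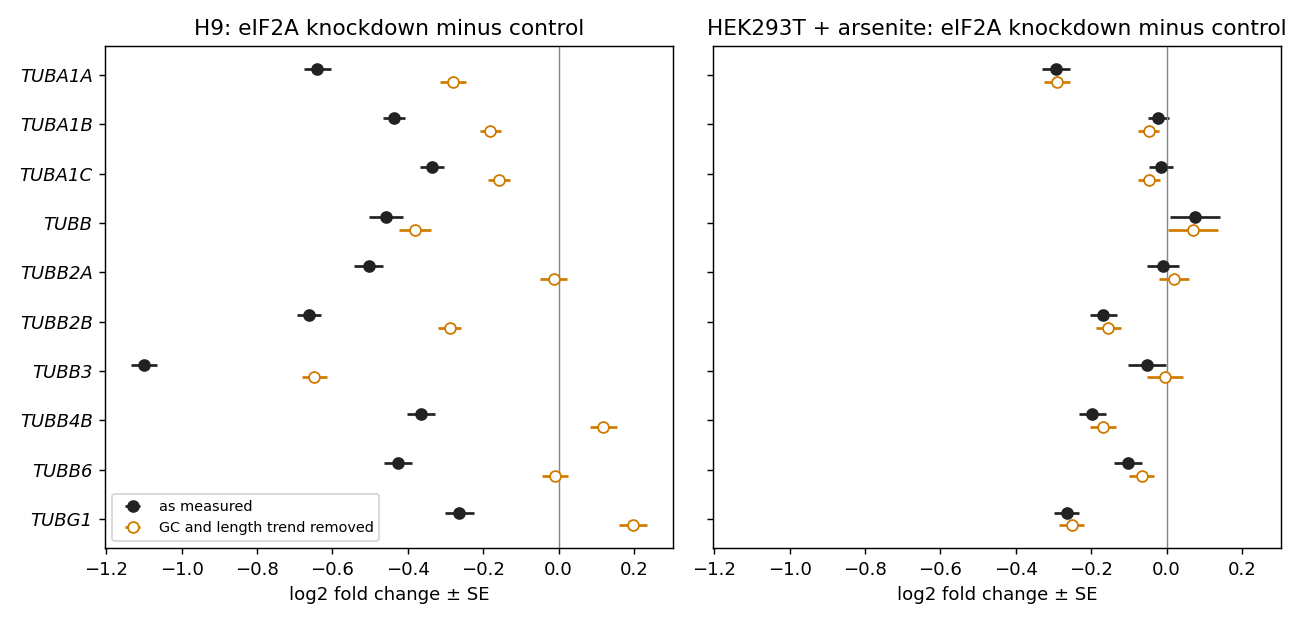
Log2 fold change ± SE of each tubulin gene, eIF2A knockdown minus control, in H9 (left) and HEK293T (right), as measured (filled) and after removal of the GC and length trend (open). In H9 all filled points are below 0 and TUBB3 is the lowest by either measure, while in HEK293T TUBB3 lies near 0 and removing the trend moves the points little.

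Shares within the H9 pool differed as well. TUBB3 held 8.892 and 8.882% of the beta pool with eIF2A shRNA, against 13.11 and 13.12% in H9 controls. TUBB4B held 45.1 and 46% with eIF2A shRNA and 40.6 and 40.3% in controls. TUBB2B held 22.2 ± 0.17% with eIF2A shRNA and 24.2 ± 0.26% in controls, and TUBB2A 9.74 ± 0.16% with eIF2A shRNA and 9.51 ± 0.17% in controls (SD, n = 2 each). As measured the pool was smaller, at 932 and 938 CPM per kb with eIF2A shRNA, against 1327 and 1389 CPM per kb in controls. How far the size of the pool goes with the trend over GC and length given above was not tested. With the trend removed TUBB4B, its largest member, had a log2 fold change of 0.12, against -0.37 as measured. TUBB2A and TUBB6 were then at -0.01, and TUBB3, TUBB and TUBB2B stayed lower. The summed pool with the trend removed is not given here. In the alpha pool TUBA1A had 9.39 ± 0.22% with eIF2A shRNA and 10.8 ± 0.021% in controls, and TUBA1B 70% in both groups. In the order of levels TUBB3 dropped below TUBG1 and TUBB2A in the knockdown libraries.

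Markers of other cell types moved in the same libraries, and their part in the tubulin values was not tested. The 12 neural markers, TUBB3 not among them, summed to 517 to 526 CPM in H9 cells with eIF2A shRNA and 286 to 293 CPM in H9 controls. Most of that was NES, the neural progenitor filament gene, with 458 and 446 CPM with eIF2A shRNA and 220 and 223 CPM in controls. Of the 10 tested, 4 rose and 3 fell (edgeR, median log2 fold change 0.05), where 37% of all tested genes rose and 34.3% fell. With the trend removed 2 rose and 2 fell (median log2 fold change -0.14), where 49.5% of all tested genes changed in either direction. Not all markers lay higher: SYP had 38.2 and 40.9 CPM with eIF2A shRNA and 45.1 and 48.2 CPM in controls, and SOX1 had 2.74 and 3.48 CPM with eIF2A shRNA and 4.52 and 5.48 CPM in controls. DCX, a marker of young neurons, lay on the same side as NES, with 2.67 and 1.78 CPM with eIF2A shRNA and 0.606 and 0.938 CPM in controls. The 8 fibroblast markers summed to 880 to 892 CPM with eIF2A shRNA and 1010 CPM in controls, of which THY1 had 592 and 594 CPM with eIF2A shRNA and 788 and 794 CPM in controls. COL1A1 lay the other way, with 118 and 124 CPM with eIF2A shRNA and 88.7 and 87.7 CPM in controls. Of the 6 tested fibroblast markers 2 rose and 1 fell (edgeR), and 2 rose and 2 fell with the trend removed. The H9 knockdown libraries also had more reads outside annotated features, 20.84 and 20.63%, against 18.84 and 18.39% in H9 controls.

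In HEK293T cells with eIF2A siRNA TUBB3 did not pass the test. It had 34.5 and 35.4 CPM with eIF2A siRNA, against 36.6 and 35.9 CPM in controls (log2 fold change -0.05 ± 0.05 SE, adjusted p = 0.5, edgeR). Its share of the beta pool was 1.89 and 1.936% with eIF2A siRNA, and the controls had 1.859 and 1.669%. Whether its fold change differs from that in H9 was not tested, since the H9 value chose the gene.

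Other members fell in HEK293T. By edgeR's quasi-likelihood test, 5 of the 10 were lower with eIF2A siRNA (adjusted p under 0.05), 0 were higher (also 0 at an unadjusted p under 0.05, and by DESeq2 and limma-voom) and 5 did not pass, where 14.7% of all tested genes were lower and 14.1% higher. The changes were small: the members' median log2 fold change was -0.08, beside -0.003 for all tested genes, and 0 of the 10 were past 1.5-fold in either direction, against 4.3% of all tested genes lower and 3.91% higher. In TUBB, TUBB2A, TUBA1B, TUBA1C and TUBB3, which did not pass, log2 fold changes ran from -0.05 in TUBB3 to 0.07 in TUBB.

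TUBA1A and TUBG1 fell the most. TUBA1A had 296.7 and 291.6 CPM with eIF2A siRNA, against 340.6 and 379.3 CPM in controls (log2 fold change -0.29 ± 0.04 SE, adjusted p = 1.1e-07, edgeR). TUBG1 had 387.2 and 387.5 CPM with eIF2A siRNA, against 445.5 and 484.9 CPM in controls (log2 fold change -0.27 ± 0.03 SE, adjusted p = 1.7e-07, edgeR). For both genes the HEK293T controls were further from each other than the knockdown libraries were.

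TUBB4B, with the largest share of the HEK293T beta pool as counted, had 1174 and 1170 CPM with eIF2A siRNA and 1271 and 1416 CPM in controls (log2 fold change -0.20 ± 0.04 SE, adjusted p = 0.00011, edgeR). Without the second control its log2 fold change was -0.12 (adjusted p = 7e-04) and without the first -0.27. TUBB2B had 126.7 and 126.5 CPM with eIF2A siRNA and 141.9 and 142.4 CPM in controls (log2 fold change -0.17 ± 0.04 SE, adjusted p = 0.00043, edgeR). TUBB6 had 133.7 and 133.4 CPM with eIF2A siRNA and 141.2 and 145.3 CPM in controls (log2 fold change -0.10 ± 0.04 SE, adjusted p = 0.031, edgeR). Groups did not overlap in any of the 5 called genes, nor did they in TUBB3, so that 6 of the 10 members lay lower without overlap, beside 30.1% of all tested genes. The TUBB6 call was lost with the trend removed (adjusted p = 0.16) and on leaving out any 1 library other than the first HEK293T control and the second H9 control (adjusted p = 0.055 to 0.15). The neural markers, at 50.7 to 54.5 CPM in sum with eIF2A siRNA and 51.1 to 54.9 CPM in controls, had 0 genes called in either direction, also at an unadjusted p under 0.05.

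The 5 genes whose pattern over the 8 libraries was nearest to that of TUBB3, by Euclidean distance of centred log2 (CPM + 0.5) among 12956 genes, were FOXB2, APLNR, SCN4A, CAMK1G and LRIG1. LRIG1, a transmembrane inhibitor of growth factor receptors, averaged 125 CPM in H9 with eIF2A shRNA, 203 in H9 controls, 24.1 in HEK293T with eIF2A siRNA and 25.2 in HEK293T controls. SCN4A, a sodium channel gene, averaged 30.9 CPM in H9 with eIF2A shRNA, 59.9 in H9 controls, 5.29 in HEK293T with eIF2A siRNA and 4.89 in HEK293T controls. The other 3 averaged at most 10.1 CPM in any group. APLNR and CAMK1G averaged at most 0.0218 CPM in either HEK293T group, a level at which the added 0.5 CPM outweighs the counts. Their log2 fold changes between the control groups were 9.87 and 7.59, against 3.28 for TUBB3.

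The other tubulin genes shared parts of these patterns. Of 8 tested of 12 listed, 5 fell and 1 rose in H9 with eIF2A shRNA (edgeR, adjusted p under 0.05), where 34.3% of all tested genes fell and 37% rose. With the trend removed 2 fell and 2 rose, where 49.5% of all tested genes changed in either direction. TUBB4A, a beta isotype known from brain, averaged 36.7 ± 1.8 CPM in H9 with eIF2A shRNA and 56.3 ± 1.29 CPM in H9 controls (log2 fold change -0.62, adjusted p = 3.8e-08, edgeR; -0.24 with the trend removed). In HEK293T, 1 of the 8 fell with eIF2A siRNA, the second gamma-tubulin gene TUBG2 (log2 fold change -0.34, adjusted p = 0.00012), and 1 rose, the epsilon-tubulin gene TUBE1 (log2 fold change 0.37, adjusted p = 0.00038, edgeR). Of all tested genes, 14.7% fell and 14.1% rose in HEK293T. TUBG2 fell in H9 too as measured (log2 fold change -0.25, adjusted p = 0.0067), but had a log2 fold change of 0.21 with the trend removed (adjusted p = 0.031, edgeR). Because TUBG2 shares windows with TUBG1, the values of these genes are not fully separate. Between the control groups TUBA4A was higher in H9, with 77.6 ± 0.49 CPM against 13 ± 1.77 CPM in HEK293T controls (log2 fold change 2.56, adjusted p = 2e-28, edgeR).

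Genes that fold tubulin moved in different directions. Of all tested genes, 37% rose and 34.3% fell in H9 with eIF2A shRNA, and 49.5% changed in either direction with the trend removed. In HEK293T with eIF2A siRNA 14.1% of all tested genes rose and 14.7% fell. Of 7 tubulin cofactors, which assemble the heterodimer, 5 fell and 2 rose in H9 with eIF2A shRNA, and 3 fell and 2 rose with the trend removed. TBCB averaged 125.1 ± 2.53 CPM with eIF2A shRNA and 193.4 ± 4.01 CPM in controls (log2 fold change -0.63, adjusted p = 2.9e-16, edgeR; -0.12 with the trend removed). In HEK293T 2 of the 7 fell and 0 rose with eIF2A siRNA (1 at an unadjusted p under 0.05), TBCD by 0.33 on the log2 scale (adjusted p = 3.7e-08, edgeR). Of the 8 subunits of the TRiC chaperonin, 5 rose and 3 fell in H9 with eIF2A shRNA, but 1 rose and 5 fell with the trend removed. In HEK293T 5 of the 8 rose with eIF2A siRNA and 0 fell (0 at an unadjusted p under 0.05), among them CCT4 with 391.5 ± 2.77 CPM with eIF2A siRNA and 322.4 ± 4.45 CPM in controls (log2 fold change 0.28, adjusted p = 1.1e-08, edgeR). Of 5 tested prefoldin subunits, 3 rose and 0 fell (0 at an unadjusted p under 0.05) in HEK293T with eIF2A siRNA, and 3 fell and 1 rose in H9 with eIF2A shRNA. The sixth prefoldin gene, PFDN6, had 0 to 1 counts in any library and lies in the same undercounted region as TUBB.

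The autoregulation genes gave no call in HEK293T, where 0 of 4 changed with eIF2A siRNA (edgeR, and 0 at an unadjusted p under 0.05). In HEK293T 14.1% of all tested genes rose and 14.7% fell. In H9 3 of the 4 rose with eIF2A shRNA and 0 fell, also at an unadjusted p under 0.05. There 37% of all tested genes rose and 34.3% fell. DESeq2 called 1 higher and 1 lower, and with the trend removed 2 rose and 1 fell. Among the 3 that rose, SCAPER was at a low level, 1.08 ± 0.156 CPM with eIF2A shRNA and 0.557 ± 0.26 CPM in controls. With the trend removed SCAPER did not pass (log2 fold change 0.11, adjusted p = 0.84, edgeR). CNOT1, the scaffold of the CCR4-NOT deadenylase, averaged 186.3 ± 1.16 CPM with eIF2A shRNA and 73.1 ± 0.507 CPM in controls (log2 fold change 1.35, adjusted p = 5.6e-24, edgeR). With the trend removed its log2 fold change was 0.52. TTC5, which binds nascent tubulin, averaged 24.8 ± 0.376 CPM with eIF2A shRNA and 27.4 ± 0.725 CPM in controls, which did not pass as measured (log2 fold change -0.14, adjusted p = 0.08) and did with the trend removed (log2 fold change -1.0, adjusted p = 2.2e-14, edgeR).

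Of 9 genes of the gamma-tubulin ring complex, in which TUBG1 works, 2 fell and 1 rose in HEK293T with eIF2A siRNA. There 14.7% of all tested genes fell and 14.1% rose. TUBGCP2 averaged 218.1 ± 1.95 CPM with eIF2A siRNA and 266.6 ± 6.99 CPM in controls (log2 fold change -0.29, adjusted p = 3.9e-08, edgeR), and TUBGCP6 fell by 0.44 on the log2 scale (adjusted p = 3.8e-09). In H9 6 of the 9 rose and 3 fell with eIF2A shRNA, and 4 rose and 1 fell with the trend removed. Of all tested genes, 37% rose and 34.3% fell in H9, and 49.5% changed in either direction with the trend removed. Between the controls 7 of the 9 were lower and 0 higher (0 at an unadjusted p under 0.05) in H9, the direction of TUBG1, where 41.2% of all tested genes were lower. Of the 8 augmin subunits, which branch microtubules in the spindle, 3 fell and 1 rose in HEK293T with eIF2A siRNA, and 3 fell and 3 rose in H9 with eIF2A shRNA. HAUS5 was lower in both knockdowns, by 0.53 in HEK293T (adjusted p = 4.5e-11) and 0.35 in H9 (adjusted p = 1.1e-07) on the log2 scale (edgeR).

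Genes of proteins that bind microtubules mostly rose in H9 as measured. Of 17, 14 rose and 2 fell with eIF2A shRNA, where 37% of all tested genes rose and 34.3% fell. With the trend removed 8 rose and 3 fell, where 49.5% of all tested genes changed in either direction. MAPRE1, which tracks growing plus ends, averaged 179.2 ± 0.159 CPM with eIF2A shRNA and 117.4 ± 0.843 CPM in controls (log2 fold change 0.61, adjusted p = 3.6e-16, edgeR), and 0.07 with the trend removed (adjusted p = 0.14). In HEK293T MAPRE1 rose by 0.38 on the log2 scale (adjusted p = 9.6e-10, edgeR), while 3 of the 17 rose and 4 fell with eIF2A siRNA, where 14.1% of all tested genes rose and 14.7% fell. Of the 4 lower calls DESeq2 made 0 and limma-voom 2. Of 10 destabilising and severing genes, 6 rose and 4 fell in H9 with eIF2A shRNA, and 2 rose and 2 fell in HEK293T with eIF2A siRNA, where DESeq2 called 0 higher. STMN3, a neuronal stathmin that sequesters tubulin dimers, averaged 127.6 ± 0.0204 CPM in H9 with eIF2A shRNA and 236.4 ± 6.42 CPM in H9 controls (log2 fold change -0.89, adjusted p = 1.3e-20, edgeR; -0.47 with the trend removed). Between the control groups STMN3 was also higher in H9, at 236.4 ± 6.42 CPM against 60.4 ± 0.329 CPM in HEK293T (log2 fold change 1.97, adjusted p = 1.5e-31, edgeR).

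Of 14 tested genes of enzymes that modify tubulin, many of them on its tail, 9 fell and 4 rose in H9 with eIF2A shRNA, and 7 fell and 3 rose with the trend removed. Of all tested genes, 34.3% fell and 37% rose in H9, and 49.5% changed in either direction with the trend removed. In HEK293T 5 of the 14 fell and 1 rose with eIF2A siRNA, where 14.7% of all tested genes fell and 14.1% rose. TTLL12, a member of the tubulin tyrosine ligase-like family, averaged 332.5 ± 0.616 CPM in H9 with eIF2A shRNA and 496.2 ± 4.69 CPM in H9 controls (log2 fold change -0.58, adjusted p = 9.8e-18, edgeR; -0.31 with the trend removed). TTLL4, which adds glutamate to tubulin tails, fell in both knockdowns, by 0.33 in H9 (adjusted p = 3.4e-10) and 0.24 in HEK293T (adjusted p = 1.8e-06) on the log2 scale (edgeR). The tested 14 leave out ATAT1, the alpha-tubulin acetyltransferase, which had 0 counts in all 8 libraries beside TUBB.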

How the data were processed

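The authors deposited 1 table of raw read counts per RefSeq accession for each of 8 poly(A) RNA libraries. RNA was extracted with TRIzol and libraries made with a stranded TruSeq kit, per the labels' protocols. The submitters' processing notes name cutadapt, STAR 2.5.2b and the genome build hg19. The counting program was not given in the sources used here, nor were its strand setting and annotation. The members and the gene lists were chosen with earlier results of these data known.

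Symbols came from RefSeq for 18884 of 19305 accessions, from GENCODE v29 for 227 and from neither for 194. The deposited counts were tested with edgeR 4.0.16 (quasi-likelihood, robust, TMM scaling, filterByExpr) on R 4.3.3, with 4 group means over all 8 libraries (4 residual degrees of freedom) and Benjamini-Hochberg adjustment over 14565 genes at 0.05. The code was tested on simulated data. CPM values are library-scaled, and SD is over 2 libraries. The GC and length trend was fitted with mgcv 1.9.3. Other tools were DESeq2 1.42.0 and limma 3.58.1. Counters that name no gene (20.41 to 25.7% of each table) stayed out. All 10 members are named, for each list up to 4 genes of highest mean level, and the 5 genes nearest to TUBB3. Replicates of each group differed by more than sampling noise (chi-square per degree of freedom 1.35 to 4.91), most among HEK293T controls. Count precision is not the limit for the members, the lowest of which had 682 counts; the 2 libraries per group are. The last coding bases of the alpha genes are not reported here. Sequences and 50-base windows came from GENCODE v29 transcripts on GRCh38. Coding identity is aligned identical bases over the longer coding sequence.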

Additional observations from a re-analysis of the deposited data

How the results depend on the processing

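Of the 10 members, 5 were called in HEK293T and 9 between the lines, and these counts stayed within 4 to 5 and at 9 with a library left out, and at 4 and 9 with a replicate block. Same-numbered libraries did not deviate together across genes (r -0.042 in HEK293T and 0.006 in H9). This shows no shared effect of a set, but cannot tell whether the sets were prepared as pairs, which the labels do not say. The block left the H9 count past 1.5-fold at 3. That count of 3 was 6 with DESeq2 size factors, which moved the median of all genes in H9 to -0.126, and 1 after removal of the GC and length trend, with or without the block. It was 9 at 1.2-fold and 1 at 2-fold, and 3 with any library left out. Upper-quartile scaling moved the line median of all genes to -0.155 and trend removal to -0.193. In H9 DESeq2 called 10 of the microtubule-binding genes and 4 of the ring complex genes higher, against 14 and 6 by edgeR. For the counts of 0 given for gene lists, DESeq2 and limma-voom also called 0, except 1 autoregulation gene lower in H9 by DESeq2. DESeq2 called 2742 genes in HEK293T, against 4182 by edgeR.

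The TUBB3 share of the beta pool, given for H9 with eIF2A shRNA, H9 controls, HEK293T with eIF2A siRNA and HEK293T controls, was 9.44, 13.8, 2.21 and 2.04% without division by length. Per unique window it was 6.43, 9.4, 1.63 and 1.51%, and by principal transcript length 9.78, 14.4, 2.13 and 1.97%. The trend-removed share was 8.63, 12.5 and 1.99% in the first 3 of these groups. After seeing the data, pools without TUBB (9.52 and 14% in H9) and with TUBB4A (8.75 and 12.9% in H9, 1.8% in HEK293T with eIF2A siRNA) and the principal lengths were added. With 1 library left out, the share was 8.88 to 8.89%, 13.1 to 13.1%, 1.89 to 1.94% and 1.67 to 1.86%.

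Signs turned in few cases. In HEK293T TUBB2A was at 0.019 with the trend removed and 0.018 with the block too, and at -0.015 to 0.002 with 1 library left out. TUBA1C was at -0.048 to 0.025 with 1 library left out, and neither gene was called. In H9 TUBB4B was at 0.119 and TUBG1 at 0.197 with the trend removed, with or without the block. Between the lines TUBA1B was at 0.008 with DESeq2 or its size factors and -0.041 to 0.005 with 1 library left out, and called at -0.183 with upper-quartile scaling. TUBB6 was at -0.255 with the trend removed and -0.254 with the block too. The TUBB6 call in HEK293T was also lost under DESeq2 (adjusted p = 0.095), with the 4 HEK293T libraries alone (0.084) and with the block (0.069). The cause was not tested for any of these.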
